A study of Homo sapiens with 16 samples.

Results

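The subject here is the interaction of PRMT1 loss with cisplatin, that is, how far loss of PRMT1 changed the cisplatin response of each gene. All 16 libraries of the series enter it, and they come from SK-OV-3, an established human ovarian carcinoma cell line. The 12 shPRMT1 libraries came from 3 lines, each carrying a different short hairpin RNA against PRMT1 (#1, #3 and #5), and the 4 shScramble libraries came from 1 line carrying a scrambled hairpin. Each line was given 20 µM cisplatin for 24 h or left untreated, with 2 biological replicates of each, so that there were 6 cisplatin-treated and 6 untreated shPRMT1 libraries against 2 cisplatin-treated and 2 untreated shScramble libraries. All lines therefore carry a hairpin, and shScramble is the only control line. The labels do not say whether the replicates were separate cultures, so p-values measure the spread between these libraries.

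For each gene the cisplatin response was the treated minus the untreated level on the log2(RPKM + 1) scale. RPKM is a read count scaled to the length of the gene model and to the size of the library. A pair is the treated and the untreated library of 1 line and replicate number, and the responses of pairs were taken within it. The interaction is the response averaged over the 3 shPRMT1 lines minus the response in shScramble, so a negative interaction is a response lower in shPRMT1 cells. By construction it equals the treated difference (shPRMT1 minus shScramble, both in cisplatin) minus the untreated difference (the same without drug). Of 57820 genes in the table, 18149 reached 1 RPKM in at least 2 libraries and were tested with limma, and 942 had an adjusted p (Benjamini-Hochberg over all tested genes) under 0.05. A called gene is one that passed this test. The test compared group means without pairing libraries by replicate number, so each SE, p and call is that of an unpaired fit. Same-numbered replicates deviated together, and a fit with the replicate number as a block was the paired alternative. A gene described as not called may pass with the block. Each called gene was sorted by the share of its interaction that the treated difference makes up: 0.7 or more is the treated level, 0.3 or less the untreated level, and between them both levels.

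Most asymmetric dimethylation of arginine in cells is the work of PRMT1, whose substrates include histones, RNA-binding proteins and DNA repair factors. Cisplatin forms crosslinks in DNA that stall replication forks and elongating RNA polymerase, and the damage also switches on stress kinases and the transcription factor NF-kB. NF-kB induces cytokines and, at the same time, its own inhibitors, so that its targets contain both the signal and its brake. SK-OV-3 is known to lack functional p53.

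PRMT1 itself measured 4.12, 5.14 and 10.4 RPKM (lowest, median and highest of 6) in cisplatin-treated shPRMT1 libraries and 17.8 and 20.5 RPKM in cisplatin-treated shScramble libraries. Untreated, it measured 4.58, 6.79 and 8.48 RPKM in shPRMT1 and 19.3 and 23.5 RPKM in shScramble. Every shPRMT1 library lay below every shScramble library, some PRMT1 transcript remained in all of them, and the interaction of PRMT1 was -0.02 (SE 0.30, adjusted p = 0.991), with a sign that changed under several alternatives. Recovered library totals were 12289300 to 16039735 reads, and a count of 3 reads over a gene model of 2 kb corresponds to 0.0935 to 0.122 RPKM. Summed epithelial carcinoma markers (9 genes) came to 156 to 226 RPKM in cisplatin-treated and 201 to 243 RPKM in untreated shPRMT1 libraries, against 196 to 212 RPKM in cisplatin-treated and 224 to 263 RPKM in untreated shScramble libraries. Among the epithelial markers CDH1 was low, at 0.214 to 2.67 RPKM. Of markers of other cell types, PTPRC reached at most 0.112 RPKM, CD3E at most 0.0286 RPKM and CDH5 at most 0.0555 RPKM, and TYROBP was at 0 in all libraries. The endothelial marker KDR reached 1.46 RPKM. The 4 endothelial markers measured summed to 0.293 to 0.696 RPKM in cisplatin-treated and 0.480 to 1.68 RPKM in untreated shPRMT1 libraries. In shScramble they summed to 0.909 to 0.951 RPKM with cisplatin and 0.792 to 1.12 RPKM untreated. The fibroblast markers COL1A1, COL1A2, COL3A1 and LUM were expressed. The 6 fibroblast markers summed to 21.6 to 47.9 RPKM in cisplatin-treated and 50.2 to 79.1 RPKM in untreated shPRMT1 libraries, against 18.7 to 21.4 RPKM in cisplatin-treated and 53.5 to 65.7 RPKM in untreated shScramble libraries. The 8 leukocyte markers summed to 2.50 to 6.35 RPKM in cisplatin-treated and 0.882 to 1.67 RPKM in untreated shPRMT1 libraries, against 0.559 to 0.966 RPKM in cisplatin-treated and 0.483 to 0.692 RPKM in untreated shScramble libraries. Most of the leukocyte sum in cisplatin-treated shPRMT1 libraries was CD79A and CD14, and CD14, an endotoxin co-receptor, had an interaction of 0.84 (SE 0.21, adjusted p = 0.0497). CD14 reached the filter on low values through the cisplatin-treated shPRMT1 libraries alone, where it is high, so its p is given as a description. The part of these markers in the results was not tested. All libraries come from 1 established cell line. In bulk libraries, fewer cells expressing a gene and less of its RNA per cell cannot be told apart.

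Of the tested genes, 378 (2.08%) had a higher and 564 (3.11%) a lower response in shPRMT1 cells, 942 (5.19%) in all, and 3469 had an unadjusted p under 0.05. The median absolute interaction of the called genes was 0.75, and 97 higher and 138 lower genes differed by at least 1 on the log2 scale. In 940 of the 942 the interactions of the 3 shRNAs lay on the same side of 0. These genes were called on the mean of the 3, and all 3 subtract the same shScramble libraries. Agreement in sign therefore follows largely from the selection and is not a result about the shRNAs. Far more genes responded to cisplatin at all: 54% in shPRMT1 and 30.2% in shScramble passed the test of the response itself. The shPRMT1 test rests on 6 libraries per treatment and the shScramble test on 2. The first therefore has more power, and the 2 shares do not compare the sizes of the responses. The count rested on few control libraries: it was 69 higher and 130 lower without the first cisplatin-treated shScramble library, 135 and 338 without the second, 138 and 320 without the first untreated one and 100 and 150 without the second. Without a single shPRMT1 #3 library it was 213 to 234 higher and 347 to 382 lower, without line #3 it was 72 and 161, and without line #5 157 and 266. These fits with a library or line left out were unpaired, like the main fit. With the replicate number as a block, the fit called 1125 higher and 1412 lower. The share of calls that were higher was 40.1%, and it was 26.5% (250 higher, 695 lower) with voom on recovered reads. Of the higher genes, 45 reached the filter on low values through cisplatin-treated shPRMT1 libraries alone, and of the lower genes 8 reached it through cisplatin-treated shScramble libraries alone.

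The lower calls were made up of 210 genes that went up less in shPRMT1, 192 that went down more and 162 whose 2 responses had opposite signs. The higher calls were made up of 133 genes that went up more, 79 that went down less and 166 with opposite signs. Both responses passed their own tests in 170 of the 210 genes with a smaller increase and in 113 of the 192 with a larger decrease.

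Sorting placed 541 called genes at the treated level, 246 at both levels and 155 at the untreated level. Among the higher genes these were 229, 89 and 60, and among the lower genes 312, 157 and 95. At the treated level the difference between shPRMT1 and shScramble was thus larger under the drug, as in PTX3 and TENM1. It need not be absent without the drug. The untreated difference had the same sign as the treated one in 109 of the 229 higher and 139 of the 312 lower genes. At the untreated level the difference was larger before the drug, as in IL8 and ATF3. The treated difference had the same sign as the untreated one in 25 of the 60 higher and 50 of the 95 lower genes. Over all tested genes, the treated difference passed its own test in 19.8% and the untreated difference in 8.24%. The class sizes moved with the same libraries as the total: the treated level held 51 to 293 higher and 52 to 340 lower genes, and the untreated level 2 to 64 higher and 24 to 106 lower genes, when 1 library was left out. With the replicate block the treated level held 634 higher and 747 lower genes, and the untreated level 208 and 290. The 1 added to each RPKM shrinks differences between levels below 1 RPKM. For genes that are low in 1 treatment the sorting therefore depends on it. With a pseudocount of 0.1 the treated level held 197 higher and 308 lower genes, and the untreated level 41 and 94.

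**Figure D1:**
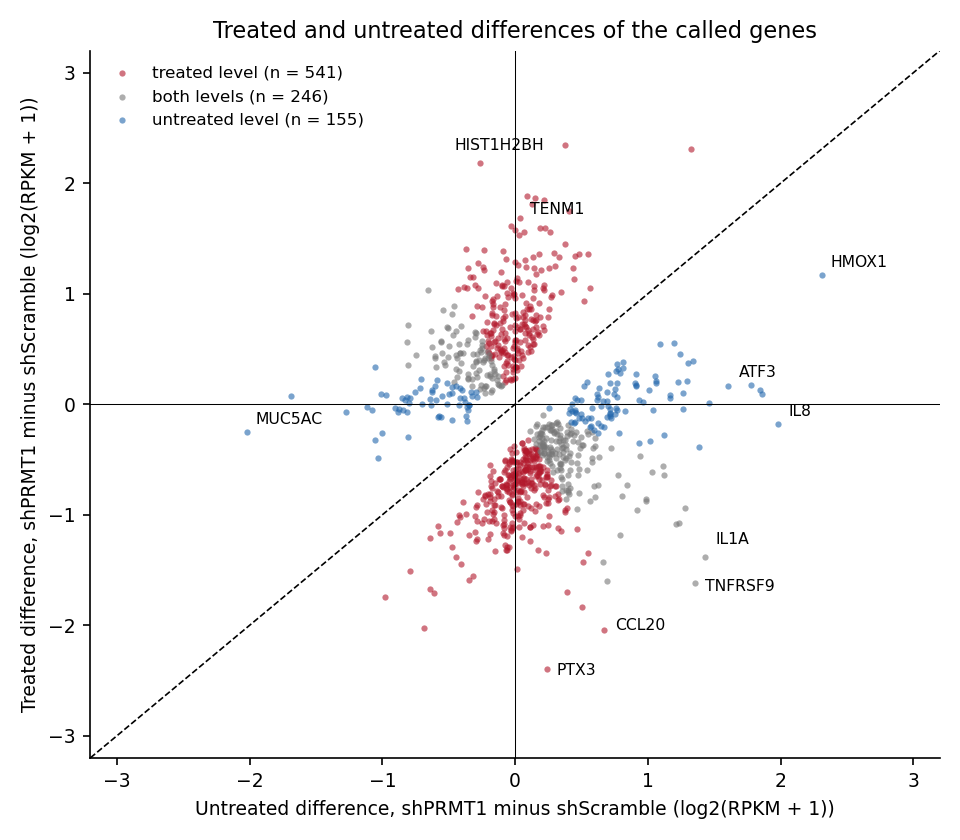
Each point is 1 of the 942 called genes, with the untreated difference (shPRMT1 minus shScramble) on the x axis and the treated difference on the y axis, both in log2(RPKM + 1); colours give the sorting (541 treated level, 246 both levels, 155 untreated level) and the dashed line marks an interaction of 0. PTX3 and HIST1H2BH lie along the vertical axis, IL8, ATF3 and MUC5AC along the horizontal axis, and TNFRSF9 and IL1A between them.

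Promoter windows of 4 called members of the cytokine and NF-kB lists are shown first, as examples of where the letters of the NF-kB site lie. They were picked with their values and matches known and are not the 4 members with the lowest interactions. The letters GGAANNNCC, on either strand, are the core of the NF-kB site, and they are in capitals in the windows below, which run from 250 bases before to 50 bases after the start (RefSeq, GRCh38.p14). Of 46 tested members of the cytokine and NF-kB lists, 38 matched the RefSeq table. The 4 windows are IL8 (CXCL8 in RefSeq, chr4:73740319-73740618, plus strand), TNFAIP3 (chr6:137867009-137867308, plus strand), TNFRSF9 (chr1:7940790-7941089, minus strand) and CXCL2 (chr4:74099146-74099445, minus strand).
IL8: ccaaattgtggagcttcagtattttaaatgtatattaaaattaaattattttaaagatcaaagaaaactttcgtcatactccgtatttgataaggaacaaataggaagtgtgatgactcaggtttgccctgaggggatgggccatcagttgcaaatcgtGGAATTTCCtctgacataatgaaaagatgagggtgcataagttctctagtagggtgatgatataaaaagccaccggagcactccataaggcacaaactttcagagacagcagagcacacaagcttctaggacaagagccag
TNFAIP3: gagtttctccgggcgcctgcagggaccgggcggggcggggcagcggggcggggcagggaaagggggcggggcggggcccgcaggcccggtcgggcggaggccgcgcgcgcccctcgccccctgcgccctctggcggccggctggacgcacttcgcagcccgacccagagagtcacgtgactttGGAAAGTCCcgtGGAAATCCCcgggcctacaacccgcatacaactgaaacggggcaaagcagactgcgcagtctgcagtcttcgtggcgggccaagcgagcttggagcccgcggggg
TNFRSF9: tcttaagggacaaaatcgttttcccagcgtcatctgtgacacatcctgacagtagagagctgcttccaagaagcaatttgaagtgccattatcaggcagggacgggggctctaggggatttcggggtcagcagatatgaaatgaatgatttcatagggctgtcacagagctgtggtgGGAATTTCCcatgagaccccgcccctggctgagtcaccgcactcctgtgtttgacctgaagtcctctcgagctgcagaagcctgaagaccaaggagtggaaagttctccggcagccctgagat
CXCL2: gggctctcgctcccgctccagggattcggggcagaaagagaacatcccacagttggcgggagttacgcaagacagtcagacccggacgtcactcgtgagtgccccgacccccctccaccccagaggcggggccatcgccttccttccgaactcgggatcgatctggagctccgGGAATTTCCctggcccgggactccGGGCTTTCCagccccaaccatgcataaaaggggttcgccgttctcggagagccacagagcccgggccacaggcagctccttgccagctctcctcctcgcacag
The match begins 91 bases before the start in IL8, 67 and 55 in TNFAIP3, 73 in TNFRSF9, and 77 and 53 in CXCL2. These letters were in 20 of 34 windows (58.8%) of list members called lower and in 12 of 25 windows (48.0%) of members tested and not called. Of all RefSeq promoters 20.1% held them, among those of tested genes 22.6%, among those of all called lower genes 20.8%, and among those of called higher genes 19.2%. The AP-1 letters TGANTCA were in 11.8% of windows of the members called lower, 12% of those not called and 7.71% of all promoters. Some genes have more than 1 window, and a match is a description of the sequence only.

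Inflammatory cytokines and chemokines had the lowest median interaction of the 26 lists, -1.87 against 0.02 over all tested genes. Of 28 members in the file 19 were tested, and 13 of the 19 were called lower and none higher. This count and those of the lists below stand beside 2.08% called higher and 3.11% called lower over all tested genes. The lists and their members were chosen with earlier results of these data known. The rank and the counts are therefore descriptions and no test of the lists. The median cisplatin response of the tested members was 0.67 in shPRMT1 and 2.63 in shScramble on the log2 scale. Of the 13, 6 sorted to the treated level, 2 to the untreated level and 5 to both. The count was 12 or 13 when 1 library was left out and 15 with the replicate block, which added LIF (adjusted p = 0.00844 with the block, 0.158 without it) and IL18 (0.0106 with the block, 0.232 without it).

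The interleukins showed each kind of sorting. IL6, an inflammatory and growth cytokine (chr7:22765502-22771621, GRCh37 as all gene positions here), measured 4.05, 7.04 and 9.23 RPKM in cisplatin-treated shPRMT1 libraries and 19.7 and 16.2 RPKM in cisplatin-treated shScramble libraries. Untreated, IL6 measured 0.552, 1.102 and 1.599 RPKM in shPRMT1 and 0.377 and 0.393 RPKM in shScramble. The treated groups did not overlap and shPRMT1 was lower, whereas untreated shPRMT1 libraries all lay above untreated shScramble, and the interaction of IL6 was -1.89 (SE 0.15, adjusted p = 0.000214).

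IL1A, a cytokine that damaged cells release to activate the interleukin 1 receptor (chr2:113531491-113542167), measured 11.2, 16.02 and 28.4 RPKM in cisplatin-treated shPRMT1 and 44.9 and 46.7 RPKM in cisplatin-treated shScramble libraries. Untreated IL1A was 3.92, 9.34 and 14.9 RPKM in shPRMT1 and 3.304 and 1.57 RPKM in shScramble. It was thus higher without the drug and lower with it in shPRMT1 cells, with no overlap either way, and its interaction of -2.81 (SE 0.29, adjusted p = 0.000976) sorted to both levels. IL1B, which acts on the same receptor (chr2:113587327-113594480), measured 2.03, 2.39 and 3.57 RPKM in cisplatin-treated shPRMT1 against 11.1 and 12.2 RPKM in cisplatin-treated shScramble libraries, and 0.408, 0.533 and 0.798 RPKM untreated in shPRMT1 against 0.08802 and 0.138 RPKM untreated in shScramble. Its interaction was -2.33 (SE 0.22, adjusted p = 0.000645), and 78.5% of it was the treated difference. Untreated IL1B lay below 1 RPKM in every library, where the added 1 shrinks a difference, so this share depends on the scale. IL32, an inducer of other cytokines, responded by -0.74 to 1.36 in the 6 shPRMT1 pairs of libraries and by 2.63 and 2.64 in the 2 shScramble pairs (log2). Its interaction was -2.31 (SE 0.20, adjusted p = 0.000342), and untreated IL32 ranged widely among the shPRMT1 lines, 0.819, 4.42 and 10.03 RPKM against 1.03 and 0.996 RPKM in shScramble.

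IL8, the neutrophil chemokine (chr4:74606222-74609433), had the largest untreated difference of the cytokines. Under cisplatin it measured 74.95, 77.9 and 90.4 RPKM in shPRMT1 and 93.2 and 89.5 RPKM in shScramble libraries. Untreated it measured 30.04, 39.1 and 49.1 RPKM in shPRMT1 and 11.8 and 7.21 RPKM in shScramble. Treated levels overlapped and untreated levels did not, so its interaction of -2.16 (SE 0.23, adjusted p = 0.00119) sorted to the untreated level, with an untreated difference of 1.98 (adjusted p = 0.000118) and a treated difference of -0.18 (adjusted p = 0.52). IL8 reached 1.37 reads per base, against an apparent upper limit of 2 in the deposited values, near which levels would be compressed. The interaction was -2.57 on values expanded for the limit, an alternative chosen after seeing the data. A fit of genes under 0.5 reads per base only was also chosen after seeing the data. In it the treated level held 203 higher and 299 lower genes, against 229 and 312 in the main fit. The untreated level held 51 higher and 68 lower genes, against 60 and 95.

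The other chemokines were CCL20, CXCL1, CXCL2 and CXCL3, and all were called lower. CCL20, which attracts cells bearing CCR6 (chr2:228678557-228682272), measured 3.54, 4.81 and 7.21 RPKM in cisplatin-treated shPRMT1 and 25.2 and 22.2 RPKM in cisplatin-treated shScramble libraries. Its untreated values were 0.515, 0.843 and 1.58 RPKM in shPRMT1 and 0.204 and 0.1596 RPKM in shScramble. The treated groups stood far apart, and the interaction of CCL20 was -2.71 (SE 0.23, adjusted p = 0.000342). CXCL2 (chr4:74962751-74965010), a neutrophil chemokine, showed an interaction of -1.87 (SE 0.11, adjusted p = 4.55e-05), made up in nearly equal parts of a treated difference of -0.95 and an untreated difference of 0.92. CXCL1 (chr4:74735109-74736959) was high without the drug in every line, and its interaction of -0.80 (SE 0.076, adjusted p = 0.000645) came with responses of -0.50 to 0.20 in the shPRMT1 pairs and 0.60 and 0.53 in the shScramble pairs, which did not overlap. CXCL3 had an interaction of -1.36 (SE 0.19, adjusted p = 0.00373).

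PTX3, a secreted pattern recognition protein (chr3:157154577-157161417), measured 1.76, 2.21 and 3.63 RPKM in cisplatin-treated shPRMT1 and 16.9 and 16.2 RPKM in cisplatin-treated shScramble libraries. Untreated PTX3 was 0.116, 0.541 and 1.16 RPKM in shPRMT1 and 0.421 and 0.2196 RPKM in shScramble, and these groups overlapped. Its treated difference of -2.40 was the most negative of the named cytokines, and its interaction was -2.63 (SE 0.20, adjusted p = 0.000206). TNF (chr6:31543343-31546113), the cytokine that activates NF-kB through its receptors, measured 4.07, 6.97 and 10.1 RPKM in cisplatin-treated shPRMT1 against 23.4 and 21.3 RPKM in cisplatin-treated shScramble libraries, and 0.403, 0.692 and 3.08 RPKM untreated in shPRMT1 against 0.325 and 0.339 RPKM untreated in shScramble. The interaction of TNF was -2.29 (SE 0.22, adjusted p = 0.000747), and its treated share of 69.7% put it just inside the boundary of the group at both levels.

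CSF2, a myeloid growth factor, measured 0.364, 0.538 and 1.21 RPKM in cisplatin-treated and 0.187, 0.409 and 0.796 RPKM in untreated shPRMT1 libraries, groups that overlapped. In shScramble it measured 3.31 and 3.21 RPKM with cisplatin and had no read in either untreated library. The interaction of CSF2 was -1.93 (SE 0.21, adjusted p = 0.0013). The complement component C3 was the exception in kind among the 13, since it went down with the drug, by -2.41 to -0.99 in the shPRMT1 pairs and -1.11 and -0.89 in the shScramble pairs. These ranges overlapped, and its call, at an interaction of -0.64 (SE 0.15, adjusted p = 0.0402), ended when any of 13 of the 16 libraries was left out. Of the tested members that were not called, IL11, a cytokine of the IL6 family, had an interaction of 0.23 (SE 0.18, adjusted p = 0.552), and its sign was negative with a pseudocount of 0.1 and with voom. TNFSF9, TNFSF10 and CSF1 had interactions of 0.24, -0.17 and -0.65, with adjusted p of 0.494, 0.742 and 0.435.

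**Figure D2:**
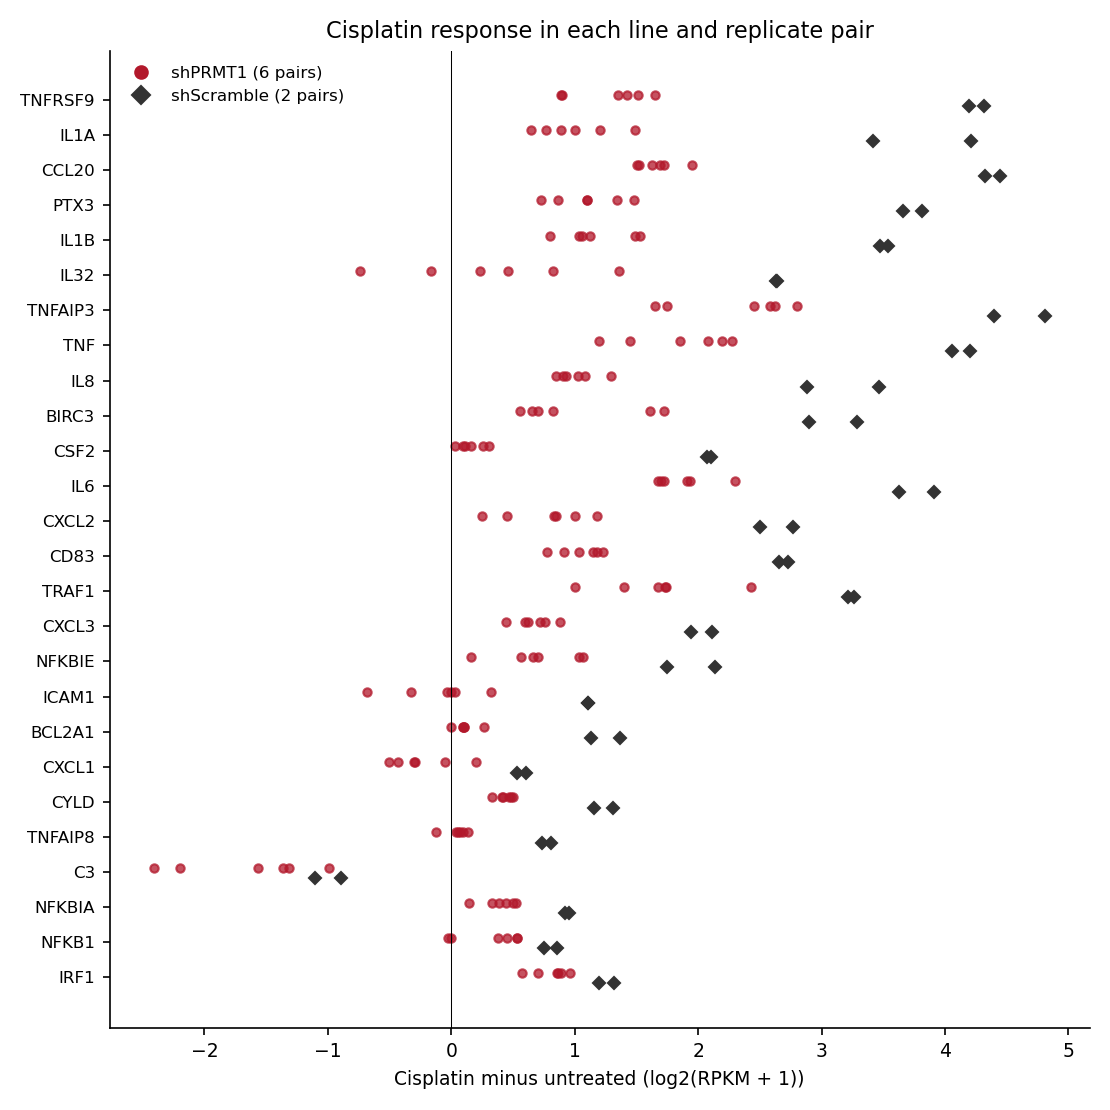
Cisplatin response (treated minus untreated, log2(RPKM + 1), x axis) of the 26 cytokine and NF-kB list members called lower, ordered by interaction, in the 6 shPRMT1 pairs (red circles) and the 2 shScramble pairs (black diamonds). Every shPRMT1 pair lies left of both shScramble pairs except for C3. The genes were chosen as called lower on these same responses, so this separation follows largely from the choice.

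NF-kB subunits, inhibitors and targets had a median interaction of -0.55, with median responses of 0.43 in shPRMT1 and 1.05 in shScramble. Of 27 tested members 13 were called lower and none higher, 7 at the treated level and 6 at both levels. This count was 7 without the first cisplatin-treated or the second untreated shScramble library, 8 without the second cisplatin-treated one, 9 without the first untreated one and 8 without line #3 or line #5, and it was 18 with the replicate block.

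The 13 included 4 inhibitors of the pathway. TNFAIP3, the ubiquitin-editing enzyme A20 (chr6:138188350-138204449), measured 25.6, 29.1 and 39.7 RPKM in cisplatin-treated shPRMT1 and 64.1 and 66.8 RPKM in cisplatin-treated shScramble libraries. Untreated TNFAIP3 was 3.77, 4.72 and 8.01 RPKM in shPRMT1 and 2.09 and 1.41 RPKM in shScramble. The groups separated in opposite directions in the 2 treatments, and the interaction was -2.29 (SE 0.15, adjusted p = 8.09e-05). NFKBIA, which holds NF-kB in the cytoplasm, had an interaction of -0.55 (SE 0.11, adjusted p = 0.0235), NFKBIE, a related inhibitor, -1.24 (SE 0.29, adjusted p = 0.0382), and CYLD, a deubiquitinase, -0.80 (SE 0.15, adjusted p = 0.0167). The calls of these 3 ended without the first cisplatin-treated shScramble library, and without at least 1 other shScramble library each, that of NFKBIE without any 1 of 12 libraries, and the adjusted p reached 0.128 for NFKBIA, 0.156 for NFKBIE and 0.108 for CYLD.

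Of the subunits, NFKB1, the precursor of p50, had an interaction of -0.50 (SE 0.096, adjusted p = 0.0173), and its call ended without the first cisplatin-treated or the second untreated shScramble library (adjusted p up to 0.117). RELB and NFKB2, the noncanonical subunits, had larger interactions of -1.87 and -1.16 that were not called (adjusted p = 0.0542 and 0.125), and with the replicate block both were called (adjusted p = 0.000221 and 0.00286). RELA and REL had interactions of 0.05 and -0.33, with adjusted p of 0.969 and 0.439.

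TNFRSF9, a costimulatory receptor of the TNF receptor family (chr1:7979906-8000926), had the lowest adjusted p of the interaction among the named genes. It measured 5.66, 6.36 and 6.9 RPKM in cisplatin-treated shPRMT1 and 21.7 and 21.4 RPKM in cisplatin-treated shScramble libraries. Untreated TNFRSF9 was 1.398, 1.91 and 2.83 RPKM in shPRMT1 and 0.239 and 0.124 RPKM in shScramble, so shPRMT1 was higher before the drug and lower under it, with no overlap. The interaction was -2.97 (SE 0.12, adjusted p = 1.73e-06), and it was -2.83, -2.72 and -3.36 for shRNAs #1, #3 and #5.

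Among anti-apoptotic targets, BIRC3 (chr11:102188214-102210134) measured 3.12, 7.14 and 14.02 RPKM in cisplatin-treated shPRMT1 and 23.4 and 25.03 RPKM in cisplatin-treated shScramble libraries, and 1.32, 3.26 and 4.66 RPKM untreated in shPRMT1 against 2.27 and 1.66 RPKM untreated in shScramble. Only its treated groups were separate, and the interaction was -2.08 (SE 0.17, adjusted p = 0.000253). TRAF1, an adaptor of TNF receptors, had an interaction of -1.57 (SE 0.24, adjusted p = 0.00542), and CD83, a surface glycoprotein, -1.65 (SE 0.14, adjusted p = 0.000342). BCL2A1 and ICAM1 were low throughout, at most 1.58 and 1.32 RPKM, and BCL2A1 reached the filter through the cisplatin-treated shScramble libraries alone. Their interactions were -1.14 (adjusted p = 0.00337) and -1.22 (adjusted p = 0.00374). BCL2A1 is high in the group that brought it through the filter, so its p is given as a description, although it is counted among the 13. IRF1 and TNFAIP8 were called as well, at adjusted p of 0.0375 and 0.0413, and each lost its call without any 1 of 12 libraries.

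Upstream of NF-kB, 2 of 27 tested receptors and kinases were called, both lower, and the median was -0.06. Over all tested genes 5.19% were called in either direction, so so small a count is not a result about this list. IRAK2, a kinase of the interleukin 1 receptor complex, measured 10.6, 11.9 and 14.7 RPKM in cisplatin-treated shPRMT1 and 27.6 and 29.4 RPKM in cisplatin-treated shScramble libraries, and 5.93, 7.21 and 8.82 RPKM untreated in shPRMT1 against 3.85 and 3.59 RPKM untreated in shScramble. Its interaction was -1.97 (SE 0.17, adjusted p = 0.000342). IL1RAP, the accessory chain of that receptor, responded by -0.42 to -0.042 in shPRMT1 pairs and 1.02 and 1.15 in shScramble pairs, and its interaction of -1.29 (SE 0.14, adjusted p = 0.0011) sorted to the untreated level. With the replicate block 4 members were called lower.

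**Figure D3:**
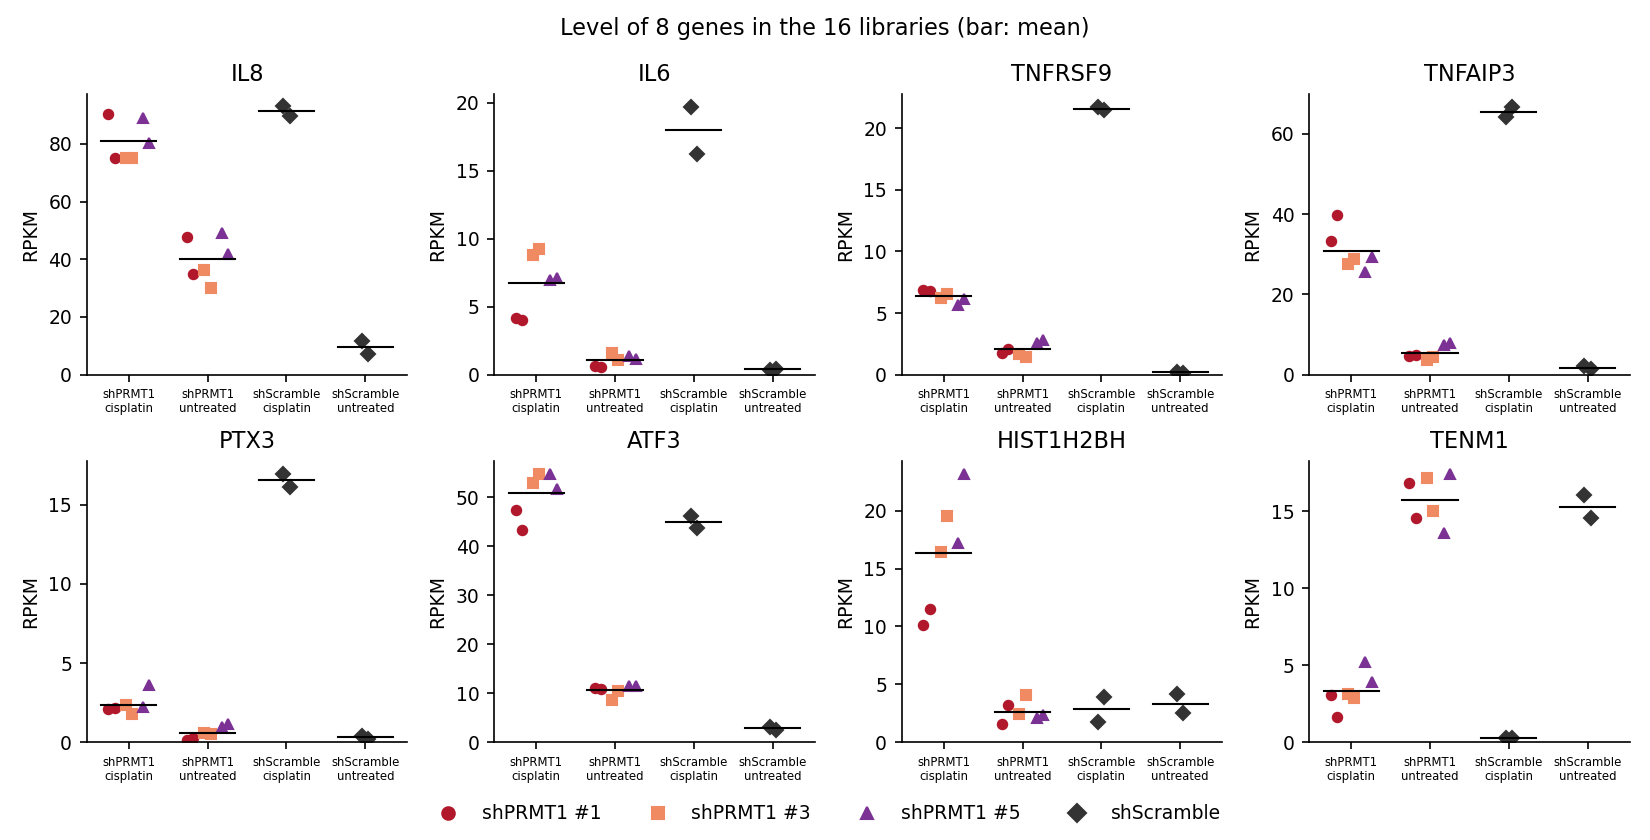
RPKM (y axis) of 8 genes in the 16 libraries, by group; symbols give the line and bars the mean. IL8 and ATF3 overlap under cisplatin and not untreated, PTX3 and IL6 differ mainly under cisplatin, TNFRSF9 and TNFAIP3 differ in opposite directions, HIST1H2BH is high in cisplatin-treated shPRMT1 libraries, and TENM1 is lowest in cisplatin-treated shScramble libraries.

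Several stress genes outside the cytokine list sorted to the untreated level, with shPRMT1 cells already high before the drug. ATF3, a stress-induced transcription factor (chr1:212738675-212794119), measured 43.2, 52.3 and 54.8 RPKM in cisplatin-treated shPRMT1 and 46.2 and 43.7 RPKM in cisplatin-treated shScramble libraries. Untreated ATF3 was 8.698, 11.03 and 11.5 RPKM in shPRMT1 and 3.098 and 2.57 RPKM in shScramble. The treated groups overlapped, the untreated groups did not, and the interaction was -1.44 (SE 0.11, adjusted p = 0.000214). KLF4, a zinc finger factor, likewise had an untreated difference of 1.17 and a treated difference of 0.084, with an interaction of -1.09 (SE 0.15, adjusted p = 0.00333). DUSP5, which dephosphorylates ERK, had an untreated difference of 0.77, a treated difference of 0.19 and an interaction of -0.58 (SE 0.076, adjusted p = 0.00304). E2F7, a repressor of E2F targets, gave 1.06, 0.21 and -0.86 (SE 0.12, adjusted p = 0.00442) in the same order.

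Others at the untreated level belonged to none of these groups. CPA4, a secreted carboxypeptidase (chr7:129932973-129964020), measured 29.9, 31.6 and 33.8 RPKM in cisplatin-treated shPRMT1 and 30.4 and 27.6 RPKM in cisplatin-treated shScramble libraries, and 15.3, 17.6 and 24.5 RPKM untreated in shPRMT1 against 3.91 and 5.096 RPKM untreated in shScramble. Its interaction was -1.72 (SE 0.13, adjusted p = 0.000214). LINC00973, a long non-coding RNA (chr3:98699901-98701940), measured 29.8, 36.1 and 48.5 RPKM in cisplatin-treated shPRMT1 and 33.6 and 33.7 RPKM in cisplatin-treated shScramble libraries, and 10.6, 12.9 and 26.4 RPKM untreated in shPRMT1 against 3.68 and 3.03 RPKM untreated in shScramble. Its interaction was -1.77 (SE 0.19, adjusted p = 0.00125). Both kept their calls without any 1 library.

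PDCD1LG2, a ligand of the immune checkpoint receptor PD-1, had an untreated difference of 1.38 and an interaction of -1.77 (SE 0.25, adjusted p = 0.00374). HMOX1, heme oxygenase 1 (chr22:35776353-35790207), measured 25.5, 29.4 and 37.8 RPKM in cisplatin-treated shPRMT1 and 12.3 and 13.4 RPKM in cisplatin-treated shScramble libraries, and 30.5, 43.7 and 51.98 RPKM untreated in shPRMT1 against 6.86 and 8.53 RPKM untreated in shScramble. It was higher in shPRMT1 in both treatments, went down with the drug in shPRMT1 (-0.72 to -0.15 in the pairs) and up in shScramble (0.76 and 0.60), and its interaction was -1.15 (SE 0.18, adjusted p = 0.00667). HMOX1 was the only called member of 25 tested genes of the NRF2 and oxidative stress list, whose median was 0.11, and 2 were called higher and 2 lower with the block.

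Genes of EGFR signalling sorted to different levels. Of 8 tested EGFR ligands and ERBB receptors 4 were called lower and none higher, with a median of -0.56. NRG1, a ligand of ERBB3 and ERBB4 (chr8:31496901-32622548), measured 3.84, 4.49 and 6.44 RPKM in cisplatin-treated shPRMT1 and 13.2 and 12.1 RPKM in cisplatin-treated shScramble libraries, and 7.95, 8.66 and 10.3 RPKM untreated in shPRMT1 against 8.38 and 7.72 RPKM untreated in shScramble. Only the treated groups were apart, and the interaction was -1.35 (SE 0.13, adjusted p = 0.00074). EGFR itself had responses of -1.08 to -0.61 in shPRMT1 pairs and -0.27 and -0.22 in shScramble pairs and an interaction of -0.60 (SE 0.11, adjusted p = 0.0166). HBEGF, an EGFR ligand, sorted instead to the untreated level, with an untreated difference of 1.06 and an interaction of -0.80 (SE 0.14, adjusted p = 0.0105). The fourth, EREG, had an interaction of -0.61 (SE 0.15, adjusted p = 0.0437). Without the first cisplatin-treated shScramble library only NRG1 was called, and the adjusted p was at most 0.115 for EGFR, 0.0666 for HBEGF and 0.191 for EREG when 1 library was left out, a call that any 1 of 14 libraries ended. The square root scale also ended the call of HBEGF, with an adjusted p of 0.287.

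Immediate early and integrated stress genes had 6 called lower members each. Of 23 tested AP-1 and immediate early genes these were ATF3, EGR2, KLF4, NR4A3, KLF6 and CYR61, and the median was -0.31. EGR2, a zinc finger factor, responded to cisplatin by -0.028 to 0.57 in the shPRMT1 pairs against 1.48 and 1.52 in the shScramble pairs, and its interaction was -1.20 (SE 0.15, adjusted p = 0.00227). The count was 3 without the first cisplatin-treated shScramble library. With the replicate block it was 8 lower and 3 higher, FOS being one of the higher genes (interaction 0.90, adjusted p = 0.00325 with the block and 0.121 without it). Of 25 tested ATF4 targets and integrated stress genes, TRIB3, STC2, PPP1R15A, PHGDH, DDIT3 and AARS were called lower, with a median of -0.31. DDIT3, the pro-apoptotic factor CHOP, had an untreated difference of 0.76, a treated difference of 0.14 and an interaction of -0.62 (SE 0.10, adjusted p = 0.00761). None of the 25 was called without the first cisplatin-treated shScramble library, 1 or 2 without another shScramble library, and 12 lower and 1 higher with the replicate block.

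YAP and TEAD targets had 3 called lower of 20 tested, ANKRD1, TGFB2 and CYR61, with a median of -0.17, beside 3.11% called lower over all tested genes. ANKRD1, a nuclear ankyrin repeat protein (chr10:92671852-92681033), measured 19, 21.7 and 28.5 RPKM in cisplatin-treated shPRMT1 and 47.6 and 39.7 RPKM in cisplatin-treated shScramble libraries, and 5.25, 8.33 and 14.4 RPKM untreated in shPRMT1 against 2.995 and 2.87 RPKM untreated in shScramble. The groups again separated in opposite directions in the 2 treatments, and the interaction was -2.21 (SE 0.23, adjusted p = 0.000976). TGFB2, a secreted growth factor, had an interaction of -1.28 (SE 0.18, adjusted p = 0.00373). With the replicate block 6 members were called lower and 2 higher. Of 21 tested epithelial and mesenchymal genes 3 were called lower, SNAI2 and CDH2 among them, beside the same 3.11%. N-cadherin (CDH2) had an interaction of -0.60 (SE 0.14, adjusted p = 0.0402) that any 1 of 12 libraries ended when left out, as did no filter on low values and the square root scale. SNAI1, an inducer of the mesenchymal state, had an interaction of 1.04 that was not called (adjusted p = 0.167) and was called higher with the block (adjusted p = 0.012).

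Genes of replication, the cell cycle and repair made up 4 lists, whose counts stand beside the 5.19% called in either direction over all tested genes. Of 41 tested E2F, origin licensing and replication genes, POLA1, E2F7 and E2F2 were called lower and MCM3 and MCM4 higher, and the median was -0.03; the block gave 4 higher and 5 lower. POLA1, the catalytic subunit of DNA polymerase alpha (chrX:24712035-25015103), measured 7.15, 10.7 and 12.01 RPKM in cisplatin-treated shPRMT1 and 22.2 and 19.4 RPKM in cisplatin-treated shScramble libraries, and 12.2, 16.9 and 24.3 RPKM untreated in shPRMT1 against 19.5 and 16.5 RPKM untreated in shScramble. Its treated groups did not overlap, its untreated groups did, and the interaction was -0.92 (SE 0.13, adjusted p = 0.00391). MCM4, a helicase subunit, had overlapping pairs and an interaction of 0.30 (SE 0.062, adjusted p = 0.0209) with an untreated difference of -0.35, and its call and that of MCM3 ended without any 1 shScramble library, among others, and that of MCM4 also with median-of-ratios scaling, voom and an untrended prior.

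None of 25 tested replication checkpoint and DNA-PK genes was called, while 1 was called higher and 2 lower with the block. PRKDC, the catalytic subunit of DNA-PK, which is named in the title of the series, had an interaction of -0.098 (SE 0.12, adjusted p = 0.767), with responses of -0.60 to -0.21 in the shPRMT1 pairs and -0.32 and -0.21 in the shScramble pairs. Of 35 crosslink and excision repair genes only FANCC, a subunit of the Fanconi anemia core complex, was called. It measured 2.87, 3.47 and 4.27 RPKM in cisplatin-treated shPRMT1 and 9.15 and 7.98 RPKM in cisplatin-treated shScramble libraries, and 8.21, 11.2 and 12.2 RPKM untreated in shPRMT1 against 12.8 and 12.3 RPKM untreated in shScramble. Its interaction was -0.83 (SE 0.14, adjusted p = 0.0081), with an adjusted p of 0.067 at most when 1 library was left out, the first cisplatin-treated and the second untreated shScramble library being those that ended the call. With the block 8 repair genes were called lower. Of 31 tested G2 and mitosis genes 1 was called, KIF20A, a mitotic kinesin, at 0.34 (SE 0.079, adjusted p = 0.0354), a call that any 1 of 11 libraries ended when left out, as did no filter, median-of-ratios scaling, voom and an untrended prior.

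Among 26 tested p53 target genes TP53INP1 and MDM2 were called higher and GADD45A lower, with a median of -0.05, in a line known to lack p53. This count and that of the BCL2 family below stand beside 2.08% called higher and 3.11% called lower over all tested genes. MDM2, the ubiquitin ligase of p53, had an interaction of 0.47 (SE 0.11, adjusted p = 0.0362), and CDKN1A, the inhibitor p21, one of -0.56 that was called with the block (adjusted p = 0.00636) and not without it (0.0752). The block gave 2 higher and 5 lower members. In the BCL2 family of 17, BCL2A1 and BIK were called lower and BMF, a pro-apoptotic member, higher at 0.83 (SE 0.18, adjusted p = 0.0266), and the block gave 2 higher and 3 lower. The call of BCL2A1 is a description only, since it passed the filter through the cisplatin-treated shScramble libraries alone. Any 1 of 11 libraries ended the call of MDM2 when left out, and so did median-of-ratios scaling and voom, with an adjusted p of up to 0.232. The call of GADD45A ended without any 1 of 5 libraries, without a filter on low values and on the square root scale, that of TP53INP1 without any 1 of the 4 shScramble libraries, and those of BIK and BMF without any 1 of 3 of them. The first cisplatin-treated shScramble library was among these for each of the 5 genes.

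Genes called higher included replication histones, which are made in S phase and whose mature messages lack a poly(A) tail. Of 22 tested members of that list HIST1H2BH, HIST1H2BG, HIST1H2AG and HIST1H1C were called higher and none lower, all at the treated level, and the median was 0.45. HIST1H2BH (chr6:26251878-26252303) measured 10.2, 16.8 and 23.2 RPKM in cisplatin-treated shPRMT1 and 1.76 and 3.89 RPKM in cisplatin-treated shScramble libraries. Untreated it was 1.59, 2.41 and 4.07 RPKM in shPRMT1 and 4.17 and 2.51 RPKM in shScramble, which overlapped. Its response was thus seen in shPRMT1 lines (1.57 to 2.84 in the pairs) and varied in sign between the shScramble pairs (-0.90 and 0.48), and its interaction was 2.45 (SE 0.37, adjusted p = 0.00578). HIST1H2BG had an interaction of 0.98 (SE 0.15, adjusted p = 0.00666) that ended without the first cisplatin-treated shScramble library and with voom, and HIST1H2AG one of 0.67 (SE 0.15, adjusted p = 0.0352) that any 1 of 11 libraries ended when left out, as did voom and no filter on low values. HIST1H1C had an interaction of 0.42 (SE 0.11, adjusted p = 0.0497), and any 1 of 14 libraries ended its call. The list had 1 to 4 calls when 1 library was left out, 1 with voom and 6 with the block. Histone genes are near copies of each other, so how their reads were shared among them is uncertain, and the same holds for the ribosomal pseudogene RPS15AP36, called higher at 1.72 (SE 0.33, adjusted p = 0.0166), a call that ended with voom, with a pseudocount of 0.1 and without any 1 of 3 shScramble libraries.

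JMJD6, a lysyl hydroxylase also described as an arginine demethylase (chr17:74708918-74722866), was the only called gene of 11 tested arginine methyltransferases and partners. It measured 21.4, 22.5 and 28.6 RPKM in cisplatin-treated shPRMT1 and 12.8 and 13.7 RPKM in cisplatin-treated shScramble libraries, and 9.83, 11.3 and 12.3 RPKM untreated in shPRMT1 against 9.76 and 10.2 RPKM untreated in shScramble. The treated groups did not overlap, and the interaction was 0.65 (SE 0.092, adjusted p = 0.00434). EID3, a subunit of the SMC5/6 complex, had an interaction of 1.01 (SE 0.16, adjusted p = 0.00666) at both levels, with adjusted p of 0.0554 without the first cisplatin-treated shScramble library. The same library was 1 of 3 that ended the call of CCDC168, a coiled-coil gene with an interaction of 1.49 (SE 0.27, adjusted p = 0.0139), as did voom.

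Genes with a higher response that sorted to the untreated level are, by the definition of that class, lower in untreated shPRMT1 cells. MUC5AC, a gel-forming mucin, measured 0, 0.0189 and 0.185 RPKM in cisplatin-treated shPRMT1 and 0.3103 and 0.1896 RPKM in cisplatin-treated shScramble libraries, and 0.168, 0.774 and 1.88 RPKM untreated in shPRMT1 against 4.04 and 9.15 RPKM untreated in shScramble. Its untreated groups did not overlap, both treated groups lay near 0, and the interaction was 1.77 (SE 0.30, adjusted p = 0.00987). That call ended without the first cisplatin-treated shScramble library, without line #3, with a pseudocount of 0.1 and with voom. Its adjusted p reached 0.994 among the alternatives, so the interaction of MUC5AC depends on the scale and the setting. ARL14, a small GTPase, had responses of 1.25 to 2.92 in shPRMT1 pairs and 1.003 and 1.40 in shScramble pairs, which overlapped, and an interaction of 1.21 (SE 0.26, adjusted p = 0.0246). PCDH10, a protocadherin, had an untreated difference of -1.05 and an interaction of 1.39 (SE 0.24, adjusted p = 0.01). Both lost their calls without the first cisplatin-treated shScramble library and without the first untreated one, ARL14 also without each of the other shScramble libraries and without the first untreated shPRMT1 #3 library, and on the square root scale.

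The other lists held 0 to 2 calls each, beside 5.19% over all tested genes. Of 40 tested cytosolic ribosomal protein genes 1, RPL30, was called higher, at 0.43 (SE 0.087, adjusted p = 0.0205), and all 40 interactions lay between 0.05 and 0.49 with a median of 0.20, and 7 were called with the block. The 13 mitochondrial messenger RNAs had a median of 0.20 and no call. Neither the 26 tested interferon-stimulated genes (median -0.13) nor the 23 cholesterol synthesis genes (median -0.07) had a call, and each had 1 called lower with the block. In the unfolded protein response list of 18, MANF, a secreted trophic factor of the endoplasmic reticulum, was called higher at 0.38 (SE 0.082, adjusted p = 0.0268), and 4 higher and 1 lower with the block. NKG2D ligands split, with ULBP3 higher at 0.54 (SE 0.13, adjusted p = 0.0458) and ULBP1 lower at -0.88 (SE 0.17, adjusted p = 0.0179), and 1 higher and 3 lower with the block. MT1F was the only call among 8 metallothioneins, at -0.95 (SE 0.22, adjusted p = 0.037), and DUSP5 and DUSP16 the only ones among 16 MAP kinase phosphatase and Sprouty genes. With the block the phosphatase list had 4 lower calls. Any 1 of 12 libraries ended the call of ULBP3, as did a pseudocount of 0.1, no filter on low values, median-of-ratios scaling, voom and an untrended prior, with an adjusted p of up to 0.241. The call of MT1F ended without any 1 of 11 libraries, with a pseudocount of 0.1, without the filter and with voom, and that of MANF without any 1 of 8 libraries, with median-of-ratios scaling and with voom. Any 1 of the 4 shScramble libraries ended the call of RPL30, 2 of them that of ULBP1, and the first cisplatin-treated one that of DUSP16.

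**Figure D4:**
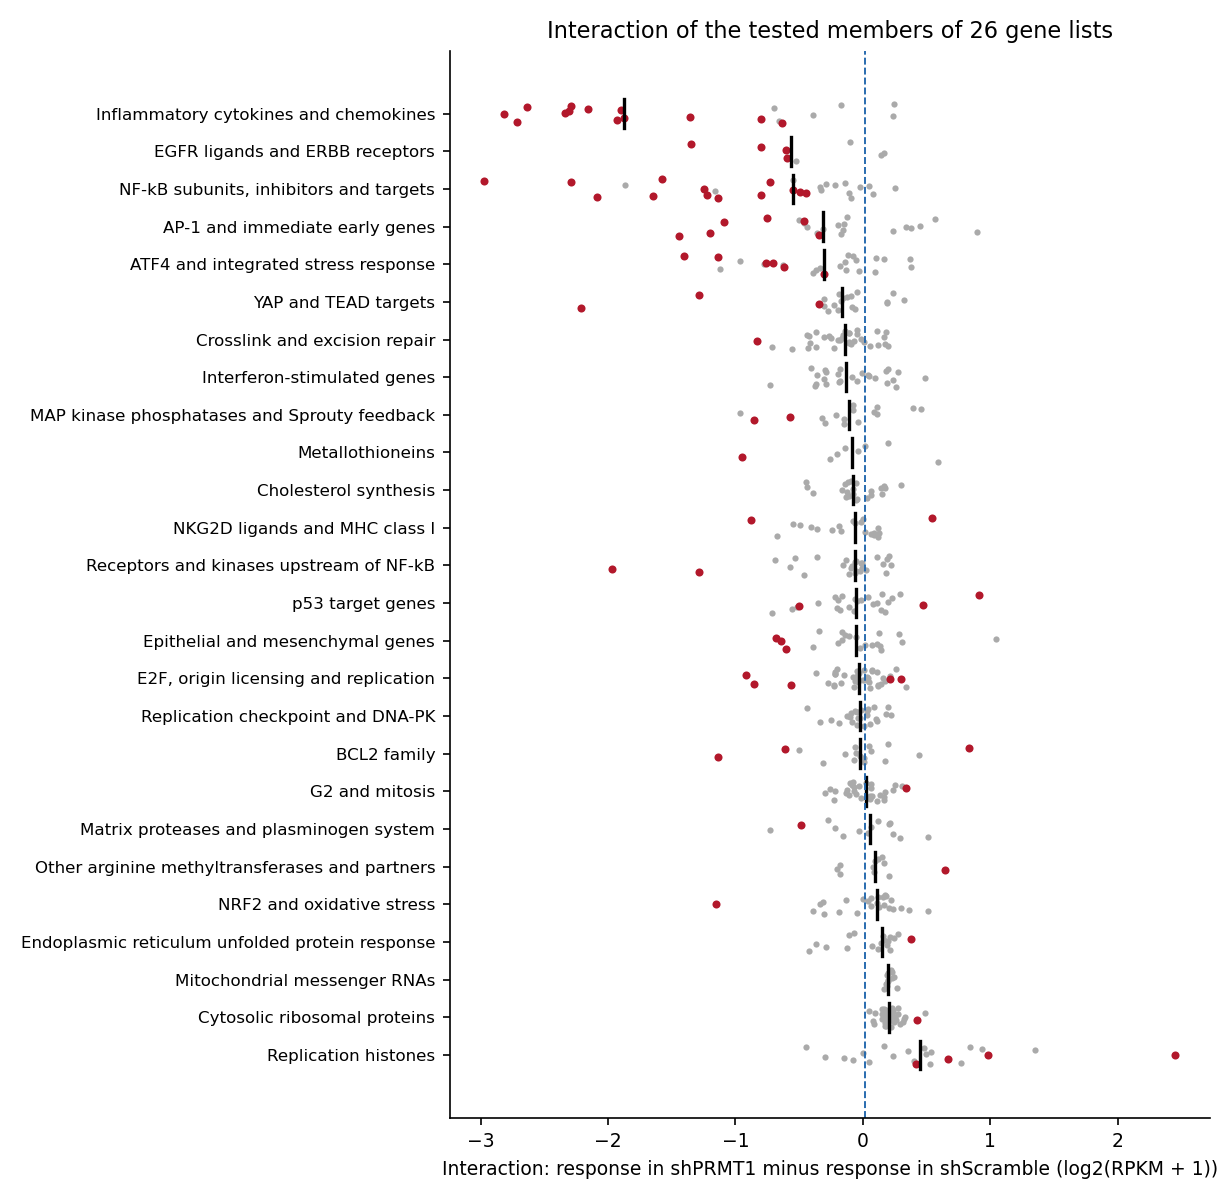
Interaction (x axis, log2(RPKM + 1)) of every tested member of the 26 lists, ordered by median (black bars); red points are called genes, grey points are not, and the dashed line is the median of all tested genes, 0.02. The cytokine list has a median of -1.87 and the replication histones one of 0.45.

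The interaction differed with the span of the gene, that is, the distance from its start to its end. Of 441 tested genes over 300 kb 90 (20.4%) were called lower and 17 (3.85%) higher, and of 2079 genes of 100 to 300 kb 202 (9.72%) were lower and 11 (0.529%) higher. Of 7144 genes under 10 kb the order was the other way, with 72 (1.01%) lower and 215 (3.01%) higher. Genes over 300 kb had a median response of -1.32 to -1.15 in the 6 shPRMT1 pairs and of -0.999 and -0.979 in the 2 shScramble pairs, so long genes went down in every line and further in shPRMT1. Genes of 100 to 300 kb gave -0.42 to -0.32 in shPRMT1 pairs and -0.20 and -0.18 in shScramble pairs. Genes under 10 kb gave 0.07 to 0.19 in shPRMT1 pairs and 0.00 and -0.03 in shScramble pairs. The median interactions of the 3 bins were -0.21, -0.18 and 0.13.

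The counts by span moved with the same libraries as the total. Genes over 300 kb had 21 called lower without the first cisplatin-treated or the second untreated shScramble library, 55 without the first untreated one and 58 without the first untreated shPRMT1 #3 library, and 138 with the block. Genes of 100 to 300 kb had 35 called lower without the first cisplatin-treated shScramble library, 40 without the second untreated one, 123 without the second cisplatin-treated one and 114 without the first untreated one, 114 to 133 without a shPRMT1 #3 library, and 530 with the block. Genes under 10 kb had 39, 79, 86 and 45 called higher without the first and second cisplatin-treated and the first and second untreated shScramble library, 124 to 139 without a shPRMT1 #3 library, 122 with voom and 580 with the block. The sign of the 3 bin medians was the same in each alternative run.

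Of the 90 lower genes over 300 kb, 66 went down more in shPRMT1, 20 had responses of opposite sign and 4 went up less, and 70 sorted to the treated level. Of the genes described above, NRG1 (1126 kb) and POLA1 (303 kb) are among these 90, and EGFR (238 kb) and FANCC (219 kb) are in the bin below. The 17 higher genes over 300 kb all went down less in shPRMT1. TENM1, a teneurin of 588 kb (chrX:123509752-124097666), measured 1.61, 3.1 and 5.21 RPKM in cisplatin-treated shPRMT1 and 0.285 and 0.297 RPKM in cisplatin-treated shScramble libraries, and 13.6, 15.9 and 17.4 RPKM untreated in shPRMT1 against 16.03 and 14.5 RPKM untreated in shScramble. Its untreated groups overlapped, its treated groups did not, and its interaction was 1.65 (SE 0.23, adjusted p = 0.00427). TBC1D5, a regulator of endosomal trafficking, had an interaction of 0.93 (SE 0.14, adjusted p = 0.00542) at both levels, with an adjusted p of 0.0720 without line #3. ARL15 and LSAMP sorted to the untreated level. ARL15 measured 0.0772, 0.204 and 0.4496 RPKM in cisplatin-treated shPRMT1 and 0.1797 and 0.105 RPKM in cisplatin-treated shScramble libraries, and 2.66, 8.25 and 11.1 RPKM untreated in shPRMT1 against 15.1 and 11.99 RPKM untreated in shScramble. LSAMP measured 0.162, 0.279 and 0.431 RPKM in cisplatin-treated shPRMT1 and 0.217 and 0.179 RPKM in cisplatin-treated shScramble libraries, and 1.73, 2.62 and 3.61 RPKM untreated in shPRMT1 against 7.68 and 5.15 RPKM untreated in shScramble. Both lay near the lower end of the scale under cisplatin. Their interactions were 1.06 (adjusted p = 0.0094) and 1.11 (adjusted p = 0.0185), both calls ended without the first cisplatin-treated or the first untreated shScramble library and with voom, and that of LSAMP also with a pseudocount of 0.1.

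**Figure D5:**
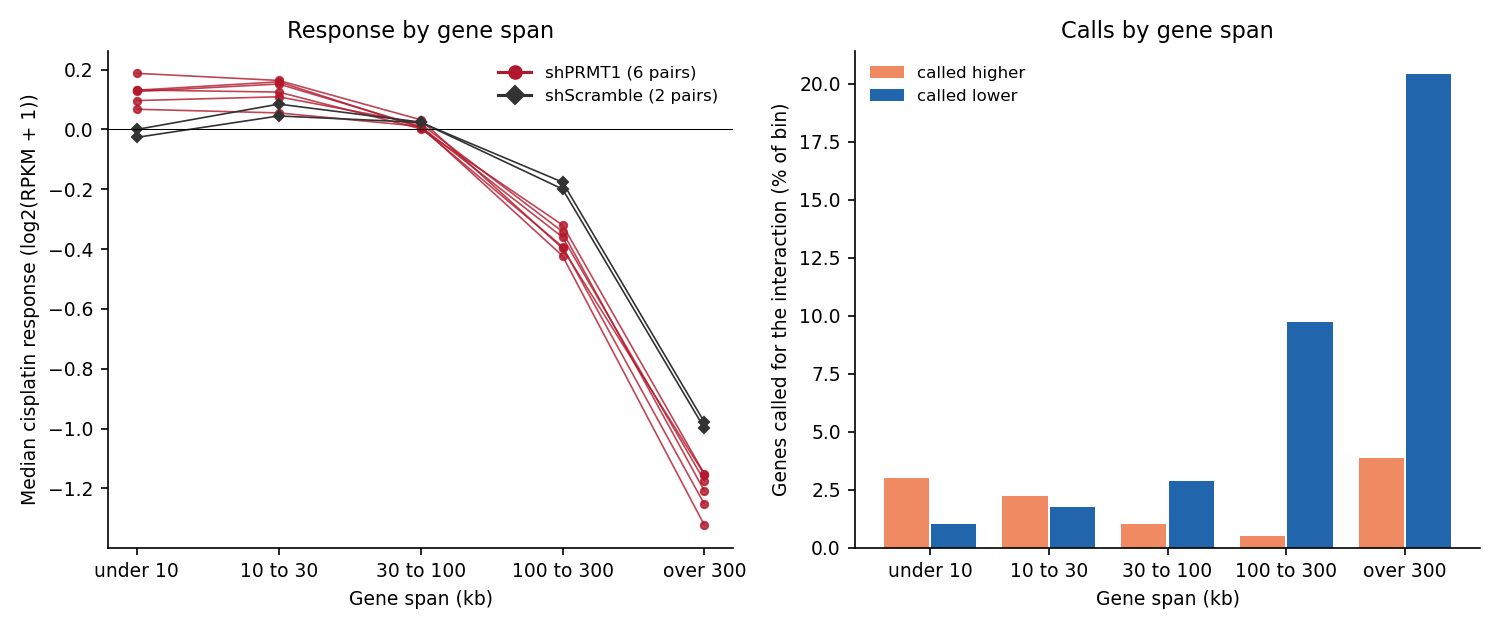
Left, median cisplatin response (log2(RPKM + 1)) of genes in 5 span bins for each of the 6 shPRMT1 and 2 shScramble pairs; right, the percentage of genes in each bin called higher or lower. Genes over 300 kb reach 20.4% called lower, and genes under 10 kb have more higher (3.01%) than lower calls (1.01%).

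Gene type and span went together. Protein coding genes (12326 tested) had 207 higher and 493 lower calls, a median interaction of -0.01, and long non-coding or unclassified genes (2346 tested) had 118 higher and 48 lower calls and a median of 0.13. Within protein coding genes, those over 100 kb (2364) had 26 higher and 279 lower calls and those under 10 kb (2396) had 75 and 42, with medians of -0.19 and 0.09. For long non-coding or unclassified genes the same bins had 2 higher and 11 lower calls among 127 genes, and 93 higher and 21 lower among 1632.

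The 3 shRNAs were also compared with each other. Taken alone, shRNA #1 gave 266 calls (1.47%), #3 582 (3.21%) and #5 635 (3.5%). An F test across the 3 lines called 2 genes (0.011%), with 1568 at an unadjusted p under 0.05, 269 called with the replicate block and 132 without a filter on low values. NEBL, an actin-binding muscle protein, had interactions of 0.20, -0.27 and 1.46 for #1, #3 and #5, and YWHAG, a 14-3-3 protein, 0.056, 0.19 and 0.75, each with an adjusted p of 0.0204. Mean NEBL in lines #1, #3 and #5 was 0.272, 0.377 and 0.139 RPKM with cisplatin and 6.87, 10.8 and 1.94 RPKM untreated. In shScramble it was 0.36 and 8.7 RPKM. It thus lay near the lower end of the scale under cisplatin in every line and began lowest in #5. The part of this in the difference was not tested. Averaged over the shRNAs the interaction of YWHAG was 0.33 (SE 0.056, adjusted p = 0.00894), and that of NEBL was 0.47 (SE 0.13, adjusted p = 0.0662). The overall size of the response, taken as the SD over tested genes of the response within a pair, averaged 0.646 over the 6 shPRMT1 pairs (0.590 to 0.686) and 0.625 over the 2 shScramble pairs (0.607 and 0.644). The difference of 0.0206 gave p = 0.5 in an exact two-sided permutation test of the pairs, where the smallest possible p is 0.0714 with pairs as units. Pairs of the same line are not independent, and shScramble is 1 line against 3. The test therefore describes these pairs and cannot decide whether the lines differ.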

How the data were processed

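RNA of 16 SK-OV-3 libraries was sequenced after preparation with TruSeq RNA v2, per the labels, a kit that does not mark strand. The deposited table gives RPKM per gene, made by the authors, and the submitters' processing notes name HISAT2, DESeq2, GRCh37 and mm9 with no role. Every one of the 40649 genes with a value above 0 gave whole reads (tolerance 0.01 read) from RPKM and gene model length, and library totals were 12289300 to 16039735 (ratio 1.31). No gene exceeded 1.84 reads per base, below an apparent limit of 2, at which high levels are compressed. Intervals from these reads would cover counting error only.

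From RPKM, log2(RPKM + 1) was fitted with limma 3.58.1 in R 4.3.3 (mean per group for 8 groups, trended prior), for 18149 genes with at least 1 RPKM in at least 2 libraries, and p-values were adjusted by Benjamini-Hochberg over all of them at a threshold of 0.05. Scripts were tested on simulated data. Same-numbered replicates deviated together in 28 of 28 pairs of groups (correlation 0.296 to 0.699), so the numbers pair the libraries, and a replicate block was the paired alternative. Replicates differed by more than counting noise (chi-square per degree of freedom 5.79 to 40.0), so none was merged.

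Named genes were, among called genes of at least 5 RPKM in the highest group with all 3 shRNAs on the same side, the 5 most positive and 5 most negative in each class of the sorting, up to 3 called members of each of 26 lists, and PRMT1, IL6, IL8, IL1A, IL1B, TNF, TNFAIP3, IL11 and PRKDC. Other list members, CD14 and YWHAG were named after their values were seen. Some called list members, and the counts of 1 list, are not reported here. Members and lists were chosen with earlier results of these data known. Alternatives were the pseudocount, the filter, the scaling, voom, a square root scale, the prior, the block, each line and each library left out, and the class boundaries. Promoter windows came from RefSeq (GRCh38.p14), and gene types were matched by identifier. Python 3.11.15, pandas 2.3.3 and scipy 1.17.1 were used.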

Additional observations from a re-analysis of the deposited data

Results flagged for a closer look

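The responses of the shPRMT1 and shScramble lines to the same treatment differed, by the test of the difference itself, in 378 genes that were higher and 564 that were lower in shPRMT1. Among the 3 shPRMT1 lines the response of NEBL differed, at an adjusted p of 0.0204 (limma F test), with an interaction of 0.20 for shRNA #1, -0.27 for #3 and 1.46 for #5. With cisplatin NEBL lay near the lower end of the scale in every line, and its untreated mean was lowest in #5, at 1.94 RPKM. The response of YWHAG differed among the lines at the same adjusted p of 0.0204, with 0.06, 0.19 and 0.75. Labelled groups held 2 libraries each, too few for a check of single outlying libraries.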

How the results depend on the processing

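The direction of every called named gene was the same in each alternative run. Runs that left out a library or a line had no replicate block. Of the 70 called named genes, 33 stayed called without any 1 library, and the other 37 lost the call without the first cisplatin-treated shScramble library. Of the 70, 33 lost the call without line #3, 18 without line #5, 5 without line #1, 14 with voom, 11 without a filter, 6 with a pseudocount of 0.1, and 5 each with median-of-ratios scaling, the square root scale and an untrended prior. Against 378 higher and 564 lower genes, leaving out 1 library gave 69 to 464 and 130 to 622, the 5 RPKM filter 238 higher, voom 250 higher, leaving out line #3 72 and 161, and line #5 157 and 266. Leaving out 1 library gave 51 to 293 (higher) and 52 to 340 (lower) for the treated level, 16 to 107 and 50 to 179 for both levels, 2 to 64 and 24 to 106 for the untreated level, 1103 to 4094 for the treated difference and 371 to 1800 for the untreated difference. It gave 61 to 216 for shRNA #1 alone, 79 to 706 for #3, 186 to 790 for #5, and 21 to 92, 35 to 229 and 39 to 261 for genes over 300 kb lower, 100 to 300 kb lower and under 10 kb higher. It gave 12 to 13 cytokine and 7 to 16 NF-kB list members, and 0 to 3 genes for the F test among shRNAs.

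The 5 RPKM filter gave 146 higher at the treated level, 57 at both and 35 at the untreated level, 177 for shRNA #1 and 122 under 10 kb. Voom gave 145 higher at the treated level, 31 at the untreated level and 122 under 10 kb. Without line #3 the classes held 45 and 63 (treated), 16 and 62 (both), 11 and 36 (untreated), the untreated difference 992, shRNA #1 63, #5 207, and the span bins 20, 40 and 41. Without line #5 they held 90 and 141, 48 and 88, 19 and 37, shRNA #1 114, #3 359, and the bins 48, 84 and 96, and either left 8 NF-kB members. Class boundaries of 0.6 and 0.4 put 47 higher and 74 lower genes at both levels, and 0.8 and 0.2 put 137 and 241. The F test among shRNAs, 2 genes in the report, gave 1 with a pseudocount of 0.1 or voom, 132 without a filter, 30 with an untrended prior, and 1 with values expanded for the limit of 2 reads per base or with genes under 0.5 reads per base only, both chosen after seeing the data. All alternatives for the lists and span bins were also chosen after seeing the data.

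With the replicate block the counts were 1125 higher and 1412 lower, 634 and 747 (treated), 283 and 375 (both), 208 and 290 (untreated), 6288 and 3688 for the treated and untreated differences, 1107, 1974 and 2133 for shRNAs #1, #3 and #5, 138, 530 and 580 in the span bins and 269 for the F test. A block of line by replicate pairs gave 1019 and 1294, 862, 1761 and 2022, 490 and 534 in the shorter bins, and 4 for the F test. Neither block ended the call of a named gene. The median of all genes was 0.02, and -0.01 with median-of-ratios scaling or voom.

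IL11, not called, had an interaction of -0.13 with a pseudocount of 0.1 and -0.25 with voom. PRMT1, not called, had 0.089 on the square root scale, 0.027 without line #3 and -0.15 to 0.11 when 1 library was left out. The cause of these changes was not tested.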
